A study of Homo sapiens with 8 samples.

Results

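MCF10A cells that overexpressed MALINC1 were compared with MCF10A cells that carried the empty vector, over all 13842 genes of the deposited table. MCF10A is a non-tumorigenic human breast epithelial cell line with basal features, and MALINC1 is a long non-coding RNA (lncRNA) gene. The comparison used 4 of the 8 RNA-seq libraries of the study, with 2 libraries of pLOC-empty and 2 of pLOC-MALINC1, and the other 4 libraries held the same vectors in DCIS.COM, which models ductal carcinoma in situ. The question was which transcripts differ when MALINC1 is raised in MCF10A cells. Cells of all groups were stably transduced and kept under blasticidin selection, so the controls also carry a vector and have gone through the selection. The MCF10A medium contained horse serum, epidermal growth factor (EGF), hydrocortisone, insulin and cholera toxin, whereas the labels list only horse serum for DCIS.COM. Whether the cells are pools or clones, and whether the libraries of a group came from separate transductions or from plates of the same culture, is not given in the sources used here, so the p-values measure only the spread between libraries. That spread was estimated over all 8 libraries, those of DCIS.COM included.

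Reads counted on genes ranged from 23459134 to 37550457 in the MCF10A libraries, with at most 240 genes without a read in a library. The levels below are CPM, that is reads scaled to the effective library size, after removal of the prior count that the authors had added, given for the first and second library of a group, and 3 reads correspond to 0.0836 to 0.133 CPM. The transcripts of RN7SL1 and RN7SL2 took 13.2% and 12.3% of the reads with pLOC-empty and 10.4% and 11.7% with pLOC-MALINC1. Of 8 markers of basal mammary epithelium, all were measured, whereas only 2 of 6 leukocyte, 1 of 6 fibroblast, 1 of 4 endothelial and 0 of 3 adipocyte markers were in the table. KRT5 had 6239 and 6060.0 CPM with pLOC-empty and 8766 and 8687 CPM with pLOC-MALINC1, and the single fibroblast marker measured, COL1A1, had 15.1 and 15.8 CPM with pLOC-empty and 7.38 and 6.61 CPM with pLOC-MALINC1.

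Receptors of the EGF family are switched on by ligands that are shed from the cell surface, and they signal through the kinase ERK to transcription factors of the AP-1 family, which are dimers of FOS and JUN proteins. ERK signaling also switches on its own brakes, such as the dual-specificity phosphatases and the Sprouty proteins. In the mammary gland, basal cells are marked by the transcription factor p63 and by keratins 5 and 14, they lay down basement membrane, and in culture they can take on features of stratified, squamous epithelium.

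The gene MALINC1 (GRCh37, chr5:139450897-139488859, minus strand) is annotated as a lncRNA with 17 transcripts. It had 1 and 1.505 CPM with pLOC-empty and 13.2 and 11.8 CPM with pLOC-MALINC1, a fitted rise of 9.65-fold (log2 fold change 3.27, standard error 0.19, adjusted p = 3.97e-08; limma with Benjamini-Hochberg adjustment, as for all values below). The libraries of the groups did not overlap, and the labels of the vectors were borne out in every library. The spliced form of the annotated transcript with 3 exons is shown here at its exon junctions, since the methods of the study name this transcript for the vector. The first 40 bases of each sequence are the end of the upstream exon, and capitals mark the first 40 bases of the downstream exon, in GRCh37 and on the minus strand.
exons 1 and 2: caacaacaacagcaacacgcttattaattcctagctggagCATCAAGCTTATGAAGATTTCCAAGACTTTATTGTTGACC
exons 2 and 3: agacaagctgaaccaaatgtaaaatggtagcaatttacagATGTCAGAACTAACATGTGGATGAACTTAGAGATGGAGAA
Exon 2, at chr5:139485172-139485347, is 176 nt long, and the transcript is 3528 nt long. Per the methods of the study, the vector holds a synthesized full-length MALINC1 sequence under the identifier of this transcript, although the length given there differs from that of the annotated version used here. The read counts cannot tell reads of the vector from reads of the endogenous gene.

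Genes were called differentially expressed genes (DEGs) where the change exceeded 2-fold with an adjusted p below 0.01. By this rule 761 genes (5.5% of those tested) were DEGs. They comprised 414 genes with a rise (2.99%) and 347 with a fall (2.51%). The rises reached further than the falls, with 111 genes over 4-fold and 31 over 8-fold among the rises against 36 and 5 among the falls. At least 5 CPM in the higher group were reached by 211 of the rises and 173 of the falls, and at least 100 CPM by 37 and 23. Irrespective of fold, 39.6% of the genes had an adjusted p below 0.01, with 21.5% higher and 18.1% lower. Counts given regardless of fold below use this adjusted p and stand against 21.5% higher and 18.1% lower among all genes. Counts of rises and falls in the gene lists stand against 2.99% and 2.51%. In 76.5% of all genes the libraries of the groups did not overlap, so non-overlap alone is common in this comparison. All 414 rises and all 347 falls had libraries that did not overlap. Where non-overlap is given for a DEG below, it therefore adds nothing to the call.

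**Figure D1:**
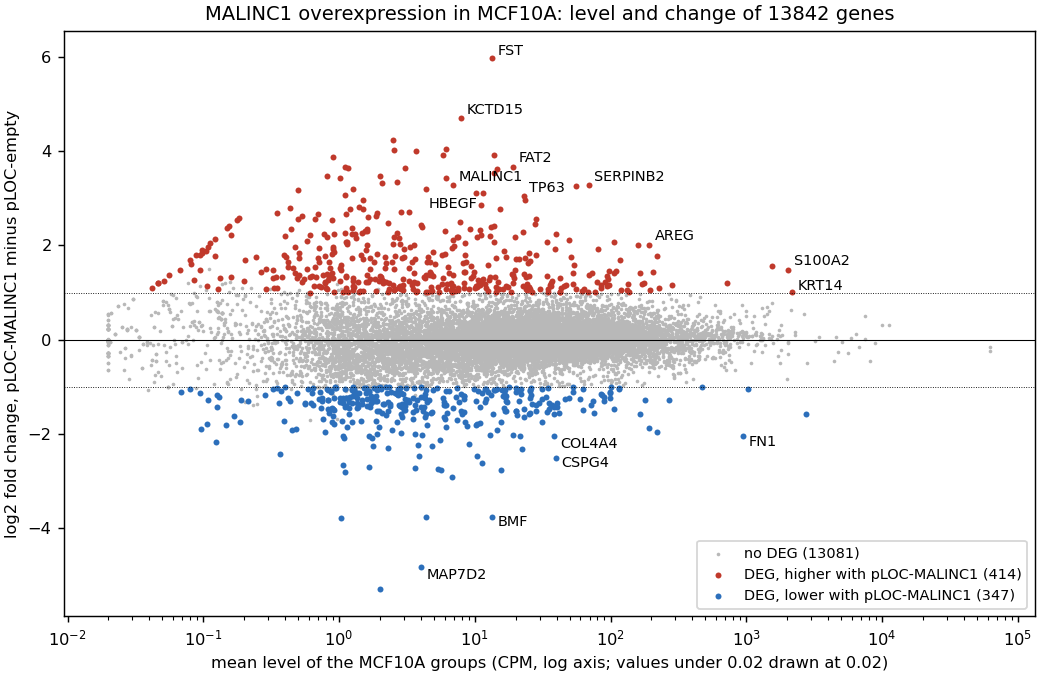
Mean level of the MCF10A groups in CPM (log axis) against the log2 fold change with pLOC-MALINC1, with 1 point per gene, red for the 414 DEGs that were higher, blue for the 347 that were lower, grey for other genes and dotted lines at 2-fold. FST stands highest at 5.97, MAP7D2 is the lowest gene named in the plot at -4.81, and KRT14 and S100A2 are among the DEGs at the right edge.

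The largest rises among DEGs with at least 5 CPM were those of secreted and membrane proteins as well as regulators. FST, which encodes the activin antagonist follistatin, had 0.276 and 0.443 CPM with pLOC-empty and 27.6 and 25.5 CPM with pLOC-MALINC1 (log2 fold change 5.97, standard error 0.16, adjusted p = 4.86e-11). KCTD15, whose product binds and inhibits AP-2 transcription factors, had 0.379 and 0.708 CPM with pLOC-empty and 14.7 and 15.8 CPM with pLOC-MALINC1 (log2 fold change 4.69, standard error 0.18, adjusted p = 1.45e-09). Neither gene came near its pLOC-MALINC1 level in any control library. FAT2, an atypical cadherin of epithelia, had 2.79 and 2.66 CPM with pLOC-empty and 34.3 and 36.6 CPM with pLOC-MALINC1 (log2 fold change 3.67, standard error 0.073, adjusted p = 1.02e-11), and VSNL1, a neuronal calcium sensor, had 0.379 and 0.354 CPM with pLOC-empty and 7.05 and 6.91 CPM with pLOC-MALINC1 (log2 fold change 4.01, standard error 0.093, adjusted p = 1.69e-11). RAB38, a small GTPase of lysosome-related organelles, had 1.86 and 1.46 CPM with pLOC-empty and 26.4 and 25.4 CPM with pLOC-MALINC1 (log2 fold change 3.92, standard error 0.13, adjusted p = 3.68e-10). In all of these genes the libraries of the groups did not overlap. The lipid phosphatase INPP5D went from 2.35 and 1.90 CPM to 23.5 and 27.4 CPM, the phospholipase PLCH2 from 0.483 and 0.310 CPM to 5.91 and 5.44 CPM and the bradykinin receptor BDKRB2 from 1.03 and 0.930 CPM to 10.4 and 12.1 CPM, with log2 fold changes of 3.54, 3.64 and 3.42. CLCA2, an epithelial adhesion protein of the chloride channel accessory family, had 11.7 and 9.52 CPM with pLOC-empty and 98.5 and 104 CPM with pLOC-MALINC1 (log2 fold change 3.25, standard error 0.095, adjusted p = 1.19e-10). CXorf49 and CXorf49B rose by 4.04 and 3.92 on the log2 scale, but they are near-identical copies, and their reads cannot be assigned with certainty.

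The largest falls at the same minimum level were those of MAP7D2, DIO2 and BMF. MAP7D2, a microtubule-associated protein, had 8.55 and 7.17 CPM with pLOC-empty and 0.195 and 0.227 CPM with pLOC-MALINC1 (log2 fold change -4.81, standard error 0.30, adjusted p = 6.96e-08). DIO2, the deiodinase that activates thyroid hormone, had 8.83 and 7.62 CPM with pLOC-empty and 0.557 and 0.529 CPM with pLOC-MALINC1 (log2 fold change -3.75, standard error 0.30, adjusted p = 6.11e-07), and BMF, a pro-apoptotic member of the BCL2 family, had 23.9 and 25.9 CPM with pLOC-empty and 2.01 and 1.59 CPM with pLOC-MALINC1 (log2 fold change -3.75, standard error 0.18, adjusted p = 6.66e-09). In each of these genes every pLOC-MALINC1 library was far below every control library. CCN5, a matricellular growth factor-binding protein, fell from 12 and 11.9 CPM to 1.25 and 1.85 CPM, the protocadherin PCDH9 from 28.7 and 25.9 CPM to 4.12 and 3.81 CPM and the prostaglandin F receptor PTGFR from 10.1 and 9.52 CPM to 1.45 and 1.32 CPM, with log2 fold changes of -2.92, -2.76 and -2.77. AQP9, a water and glycerol channel, had 19.9 and 18.8 CPM with pLOC-empty and 3.18 and 3.06 CPM with pLOC-MALINC1 (log2 fold change -2.61, standard error 0.28, adjusted p = 9.18e-06), and MYPN, a sarcomeric protein, had 37.8 and 36.0 CPM with pLOC-empty and 7.72 and 7.06 CPM with pLOC-MALINC1 (log2 fold change -2.31, standard error 0.14, adjusted p = 5.02e-08). The phosphodiesterase gene PDE7B, the selenium transporter gene SELENOP and the pseudogene CYP4F35P had log2 fold changes of -2.71, -2.26 and -2.23, and the reads of CYP4F35P may be shared with related CYP4F genes.

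Several ligands of the EGF receptor family rose. Of 16 measured genes of the EGF receptor family and its ligands 5 rose, all of them ligands, against 2.99% of all genes. HBEGF, a membrane-bound ligand that is shed to act on EGFR and ERBB4, had 2.14 and 1.99 CPM with pLOC-empty and 17.9 and 18.6 CPM with pLOC-MALINC1 (log2 fold change 3.10, standard error 0.077, adjusted p = 3.05e-11). AREG (amphiregulin) had 75.3 and 77.4 CPM with pLOC-empty and 303 and 312 CPM with pLOC-MALINC1 (log2 fold change 2.01, standard error 0.044, adjusted p = 1.08e-11), and EREG (epiregulin) had 3.38 and 4.03 CPM with pLOC-empty and 16.5 and 17.3 CPM with pLOC-MALINC1 (log2 fold change 2.17, standard error 0.071, adjusted p = 3.00e-10). The control libraries were below the pLOC-MALINC1 libraries for every one of these ligands. TGFA had 54.4 and 56.2 CPM with pLOC-empty and 137 and 133 CPM with pLOC-MALINC1 (log2 fold change 1.28, standard error 0.035, adjusted p = 6.31e-11), while NRG1, a ligand of ERBB3 and ERBB4 that was also called, had only 2 and 1 reads with pLOC-empty and 9 and 12 reads with pLOC-MALINC1. The ligands BTC and EPGN did not pass the test, with log2 fold changes of 0.34 at adjusted p = 0.131 and -0.20 at adjusted p = 0.124. The receptors moved by less than 2-fold. EGFR had 99.7 and 97.6 CPM with pLOC-empty and 131 and 123 CPM with pLOC-MALINC1 (log2 fold change 0.36, standard error 0.049, adjusted p = 5.65e-05), ERBB2 147 and 152 CPM with pLOC-empty and 114 and 110.3 CPM with pLOC-MALINC1 (log2 fold change -0.42, standard error 0.039, adjusted p = 2.77e-06) and ERBB3 a log2 fold change of -0.30 at adjusted p = 0.00246. Summed over the list, the level was 619.7 and 640.1 CPM with pLOC-empty and 950.4 and 944.3 CPM with pLOC-MALINC1.

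Among the feedback inhibitors of ERK signaling, of which 18 were measured, 8 rose and 1 fell, 14 were higher and 3 lower regardless of fold, and the median log2 fold change was 0.78, where the median over all genes tested was 0. DUSP6, a cytoplasmic phosphatase of ERK, had 12.9 and 14.6 CPM with pLOC-empty and 64.9 and 65.0 CPM with pLOC-MALINC1 (log2 fold change 2.24, standard error 0.059, adjusted p = 4.86e-11). SPRY4 and SPRY2, both Sprouty inhibitors, went from 1.72 and 2.57 CPM to 7.69 and 7.86 CPM and from 15.5 and 16.1 CPM to 34.6 and 34.1 CPM, with log2 fold changes of 1.85 at adjusted p = 6.48e-07 and 1.12 at adjusted p = 3.03e-09. In these genes the groups were apart by more than the gap between replicates. PHLDA1, a target of ERK, had 86.6 and 91.8 CPM with pLOC-empty and 242 and 236 CPM with pLOC-MALINC1 (log2 fold change 1.42, standard error 0.041, adjusted p = 1.16e-10), and the ERK phosphatase DUSP7 had 29.7 and 28.3 CPM with pLOC-empty and 75.6 and 78.8 CPM with pLOC-MALINC1 (log2 fold change 1.41, standard error 0.049, adjusted p = 4.86e-10). DUSP5, a nuclear ERK phosphatase, and the low genes SPRY1 and DUSP2 had log2 fold changes of 1.11, 1.78 and 1.35. DUSP1, which acts mainly on the stress kinases p38 and JNK and is also induced by glucocorticoids, was the member that fell, with 86.5 and 81.9 CPM with pLOC-empty and 40.01 and 41.4 CPM with pLOC-MALINC1 (log2 fold change -1.05, standard error 0.071, adjusted p = 1.63e-07). DUSP4, SPRED1 and SPRED2 were higher by less than 2-fold (0.57, 0.34 and 0.57).

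The subunits of AP-1 moved in both directions. Of 17 measured, 2 rose, FOSL1 and FOS, and 1 fell. The lowest log2 fold change of the list was -1.54, in a gene that is not among those named below. FOSL1, which encodes FRA-1, had 7.83 and 7.70 CPM with pLOC-empty and 25.7 and 27.2 CPM with pLOC-MALINC1 (log2 fold change 1.76, standard error 0.092, adjusted p = 1.77e-08), and FOS had 3.86 and 4.03 CPM with pLOC-empty and 12.3 and 12.4 CPM with pLOC-MALINC1 (log2 fold change 1.63, standard error 0.13, adjusted p = 8.70e-07). The JUN partners, by contrast, were lower by less than 2-fold. JUN had 171 and 160.3 CPM with pLOC-empty and 87.0 and 89.2 CPM with pLOC-MALINC1 (log2 fold change -0.91, standard error 0.069, adjusted p = 4.18e-07), JUND 31.7 and 31.8 CPM with pLOC-empty and 20.3 and 20.2 CPM with pLOC-MALINC1 (log2 fold change -0.65, standard error 0.061, adjusted p = 2.84e-06) and FOSL2, a further FOS family member, 141 and 134 CPM with pLOC-empty and 79.4 and 74.1 CPM with pLOC-MALINC1 (log2 fold change -0.84, standard error 0.051, adjusted p = 5.81e-08). JUNB had a log2 fold change of -0.23 at adjusted p = 0.000282, and FOSB and ATF3 did not pass the test at 0.38 at adjusted p = 0.276 and -0.47 at adjusted p = 0.112. Regardless of fold 4 subunits were higher and 7 lower, and the summed level of the list was 646 and 628 CPM with pLOC-empty and 468 and 468 CPM with pLOC-MALINC1. Of 17 other immediate-early genes only MYC and EGR1 rose. MYC had 108 and 108 CPM with pLOC-empty and 238 and 254 CPM with pLOC-MALINC1 (log2 fold change 1.19, standard error 0.045, adjusted p = 9.81e-10), EGR1 stayed under 1 CPM with 0.276 and 0.221 CPM with pLOC-empty and 0.864 and 0.604 CPM with pLOC-MALINC1 (log2 fold change 1.32, standard error 0.21, adjusted p = 0.000234), and KLF6 had a log2 fold change of -0.17 at adjusted p = 0.0112. The call of EGR1 was lost with the MCF10A libraries alone (adjusted p = 0.0127) and with pseudocounts of 0.5 and 1 CPM (0.71 and 0.47).

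**Figure D2:**
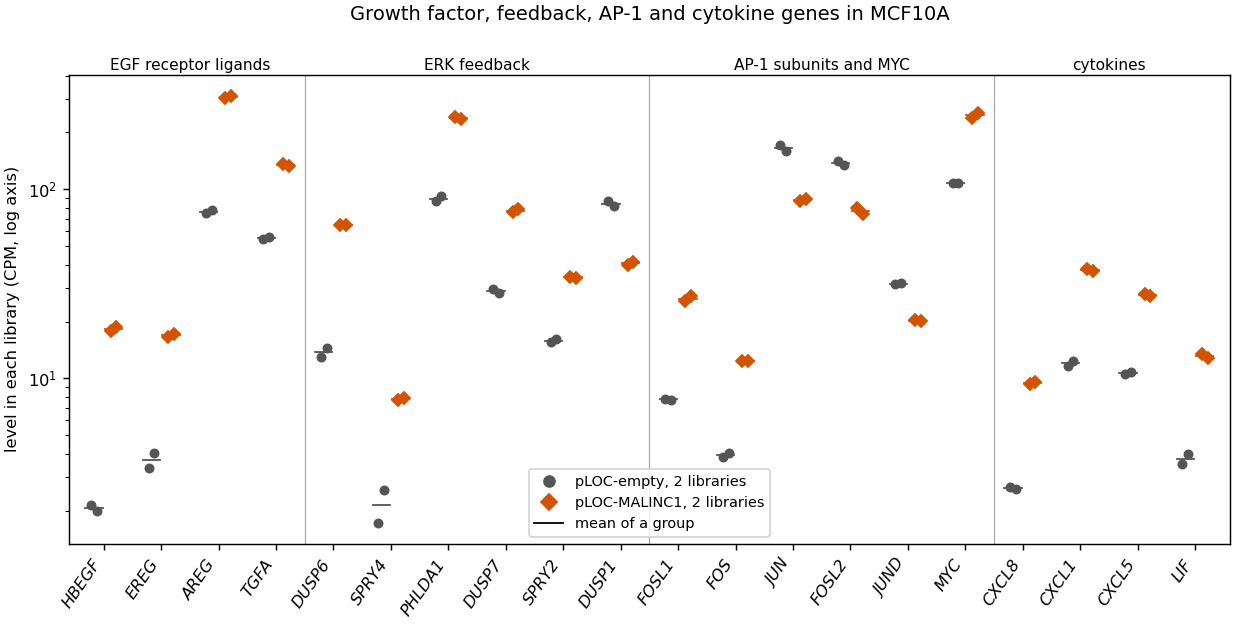
Level of 20 genes in each MCF10A library in CPM (log axis), with grey circles for the 2 pLOC-empty libraries, orange diamonds for the 2 pLOC-MALINC1 libraries and a short line for the mean of each group. Among the genes drawn, which were selected, the ligands, MYC, FOS, FOSL1 and the cytokine genes stand higher with pLOC-MALINC1, and JUN, JUND, FOSL2 and DUSP1 stand lower.

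The promoters of the DEGs were searched for the AP-1 motif, TGACTCA or TGAGTCA, which are reverse complements of each other, so that both strands were covered. The window ran from 250 bases before to 50 after each RefSeq start (GRCh38.p14), and a gene with several starts entered with all of them. The motif was present in 7.69% of 429 promoters of the DEGs that were higher (95% Wilson interval 5.53% to 10.6%) and in 4.79% of 397 promoters of those that were lower (3.085% to 7.35%). It was present in 3.58% of the promoters of tested genes that were no DEGs and in 4.95% of all promoters of the table. The intervals cover counting error only, promoters of a gene can overlap, and a match of letters is not a site of binding. Promoters of 4 rising genes of squamous epithelium or inflammation that hold the motif are printed with it in capitals, to show where it lies.
SPRR1B, chr1:153030953-153031252, plus strand: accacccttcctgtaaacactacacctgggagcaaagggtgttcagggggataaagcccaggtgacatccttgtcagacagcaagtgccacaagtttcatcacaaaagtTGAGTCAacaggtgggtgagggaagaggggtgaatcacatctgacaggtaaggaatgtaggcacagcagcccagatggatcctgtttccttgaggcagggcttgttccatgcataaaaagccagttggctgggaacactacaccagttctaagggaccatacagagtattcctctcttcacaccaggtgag
SERPINB13, chr18:63587093-63587392, plus strand: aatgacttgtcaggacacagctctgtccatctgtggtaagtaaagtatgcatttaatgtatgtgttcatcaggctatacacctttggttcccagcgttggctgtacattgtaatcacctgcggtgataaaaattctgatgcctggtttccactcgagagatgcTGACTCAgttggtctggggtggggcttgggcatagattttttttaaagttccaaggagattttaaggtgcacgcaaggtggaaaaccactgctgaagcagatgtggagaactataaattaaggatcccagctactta
S100A2, chr1:153565795-153566094, minus strand: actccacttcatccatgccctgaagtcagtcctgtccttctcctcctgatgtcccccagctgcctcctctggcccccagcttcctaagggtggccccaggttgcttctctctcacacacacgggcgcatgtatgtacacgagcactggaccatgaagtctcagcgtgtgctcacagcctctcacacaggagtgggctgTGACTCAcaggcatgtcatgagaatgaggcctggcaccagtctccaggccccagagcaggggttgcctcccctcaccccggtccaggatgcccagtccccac
CXCL8, chr4:73740319-73740618, plus strand: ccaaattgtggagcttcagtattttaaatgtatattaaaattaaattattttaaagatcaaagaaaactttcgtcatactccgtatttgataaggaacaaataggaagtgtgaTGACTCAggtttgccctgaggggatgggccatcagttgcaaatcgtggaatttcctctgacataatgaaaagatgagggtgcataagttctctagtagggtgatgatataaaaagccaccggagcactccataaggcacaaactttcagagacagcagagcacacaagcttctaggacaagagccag
The motif begins 141 bases before the start in SPRR1B, 87 in SERPINB13, 52 in S100A2 and 137 in CXCL8. SERPINB13, which encodes a keratinocyte inhibitor of cathepsins, went from 2.17 and 2.48 CPM to 22.6 and 18.7 CPM (log2 fold change 3.11, standard error 0.36, adjusted p = 1.67e-05), and the values of the other genes are given with their groups.

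Among chemokines and cytokines 6 of 24 measured rose and 1 fell (29.2%, against 5.5% of all genes), with a median log2 fold change of 0.46. The neutrophil-attracting chemokine CXCL8 had 2.65 and 2.61 CPM with pLOC-empty and 9.33 and 9.56 CPM with pLOC-MALINC1 (log2 fold change 1.81, standard error 0.082, adjusted p = 5.22e-09), and CXCL1 had 11.7 and 12.3 CPM with pLOC-empty and 37.7 and 37.1 CPM with pLOC-MALINC1 (log2 fold change 1.63, standard error 0.057, adjusted p = 4.86e-10). CXCL5 had 10.6 and 10.8 CPM with pLOC-empty and 27.9 and 27.5 CPM with pLOC-MALINC1 (log2 fold change 1.37, standard error 0.20, adjusted p = 0.000100), and LIF, a cytokine of the IL-6 family, had 3.52 and 3.98 CPM with pLOC-empty and 13.5 and 12.9 CPM with pLOC-MALINC1 (log2 fold change 1.79, standard error 0.083, adjusted p = 6.19e-09). None of these genes had a control library as high as a pLOC-MALINC1 library. Among the epithelial interleukin genes, IL1A and IL1B were higher by less than 2-fold, with 0.41 at adjusted p = 0.00462 and 0.89 at adjusted p = 0.00489, and IL1RN, the antagonist of their receptor, had 0.63. IL1B was a DEG without the second pLOC-empty library (1.303, adjusted p = 0.000183) and was over the threshold of 0.01 for the adjusted p with the MCF10A libraries alone. IL18 had a log2 fold change of -0.17 at adjusted p = 0.000918. CXCL2 and CXCL3 did not pass the test (0.50 at adjusted p = 0.0237 and 0.15 at adjusted p = 0.592). Of 26 genes of innate sensing, 3 rose (11.5%, against 2.99% of all genes). Among them was TLR4, the receptor of lipopolysaccharide, with 5.48 and 5.40 CPM with pLOC-empty and 14.6 and 13.4 CPM with pLOC-MALINC1 (log2 fold change 1.35, standard error 0.078, adjusted p = 3.97e-08).

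Among the 41 interferon-stimulated genes 9 were higher and 12 lower regardless of fold, where 21.5% and 18.1% of all genes were. In this list 1 gene was a DEG (2.44%, against 5.5% of all genes). It was IFI44L, which fell, with 7 and 6.16 CPM with pLOC-empty and 1.11 and 1.13 CPM with pLOC-MALINC1 (log2 fold change -2.47, standard error 0.22, adjusted p = 1.69e-06). Among the 21 genes of antigen presentation and among the 16 NF-kB subunits and inhibitors 0 were DEGs by limma at the thresholds above. Regardless of fold, 5 of the former were higher and 2 lower, and 3 of the latter were higher and 1 lower. At an unadjusted p below 0.05, 6 and 4 of the antigen presentation genes were higher and lower, and 6 and 2 of the NF-kB genes, and limma-voom on recovered reads also called 0 in either list. Of 13 immune checkpoint ligands 1 was a DEG (7.69%, against 5.5% of all genes). This was CD274, which encodes PD-L1 and rose from 3.86 and 4.03 CPM to 8.41 and 8.27 CPM (log2 fold change 1.07, standard error 0.13, adjusted p = 2.90e-05). The change of CD274 was just under 2-fold with a pseudocount of 0.5 CPM (0.99) or 1 CPM (0.92). ITGB2, the beta chain of the leukocyte integrins, fell from 30.8 and 30.4 CPM to 7.41 and 7.48 CPM (log2 fold change -2.03, standard error 0.14, adjusted p = 1.91e-07).

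Some genes of stratified squamous epithelium rose. Of 33 measured genes of the cornified envelope 7 rose and 1 fell, 14 were higher and 4 lower regardless of fold, and the median log2 fold change was 0.74. SPRR1B, a small proline-rich protein that is crosslinked into the envelope, had 7.62 and 7.62 CPM with pLOC-empty and 40.4 and 34.6 CPM with pLOC-MALINC1 (log2 fold change 2.28, standard error 0.13, adjusted p = 3.32e-08). CSTA (cystatin A) had 58.2 and 58.2 CPM with pLOC-empty and 171 and 149 CPM with pLOC-MALINC1 (log2 fold change 1.45, standard error 0.062, adjusted p = 2.85e-09) and GRHL3, a transcription factor of the epidermal barrier, had 4.31 and 4.69 CPM with pLOC-empty and 13.7 and 10.9 CPM with pLOC-MALINC1 (log2 fold change 1.43, standard error 0.15, adjusted p = 5.83e-06). The groups were again apart, although the pLOC-MALINC1 replicates differed more from each other than the controls did. SULT2B1, SPRR1A and SPRR2D had log2 fold changes of 1.94, 1.55 and 1.25, and reads of the SPRR genes may be shared between near-identical members. CDSN, which encodes corneodesmosin, was the member that fell, from 2.55 and 2.35 CPM to 1.39 and 0.982 CPM, a call lost with the MCF10A libraries alone (adjusted p = 0.0221), quantile normalization (-0.86) and pseudocounts of 0.5 and 1 CPM (-0.82 and -0.66). SPINK5, a kallikrein inhibitor of the epidermis, rose from 2.83 and 2.48 CPM to 13.4 and 11.3 CPM (log2 fold change 2.18, standard error 0.16, adjusted p = 3.52e-07), whereas PPL (periplakin) was lower by less than 2-fold (-0.36). SPINK5 was the 1 rise among 7 measured genes of a kallikrein list. In that list 2 genes were higher and 2 lower regardless of fold, and the median log2 fold change was -0.36.

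Some clade B serpins and S100 genes rose. Of 10 clade B serpins 2 rose, SERPINB2 and SERPINB13, 7 were higher regardless of fold, with a median log2 fold change of 0.89. SERPINB2, the plasminogen activator inhibitor PAI-2, had 11.9 and 13.99 CPM with pLOC-empty and 133 and 118 CPM with pLOC-MALINC1 (log2 fold change 3.27, standard error 0.13, adjusted p = 1.62e-09), and SERPINB5 (maspin) had a log2 fold change of 0.34 at adjusted p = 7.28e-06. Of 15 S100 genes 3 rose, and 7 were higher and 4 lower regardless of fold. S100A2, a target of p63 in basal epithelia, had 1089.8 and 1059 CPM with pLOC-empty and 2947 and 3079.5 CPM with pLOC-MALINC1 (log2 fold change 1.49, standard error 0.044, adjusted p = 1.22e-10). S100A9 had 6.59 and 7.35 CPM with pLOC-empty and 25.6 and 26.3 CPM with pLOC-MALINC1 (log2 fold change 1.89, standard error 0.074, adjusted p = 1.33e-09), and S100A8, its partner in calprotectin, had a log2 fold change of 2.48 at adjusted p = 1.27e-05. S100A6 was lower by less than 2-fold, with 2521 and 2604 CPM with pLOC-empty and 1438 and 1420.1 CPM with pLOC-MALINC1 (log2 fold change -0.84, standard error 0.039, adjusted p = 5.84e-09).

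Most basal markers of the mammary epithelium were higher. Of the 8 markers 7 were higher and 1 lower regardless of fold, 2 of them were DEGs, and the median log2 fold change was 0.54. In bulk libraries more cells of a type and more RNA per cell cannot be told apart. TP63, which encodes p63, had 5.24 and 4.61 CPM with pLOC-empty and 41.7 and 40.1 CPM with pLOC-MALINC1 (log2 fold change 3.04, standard error 0.065, adjusted p = 1.08e-11). KRT14 had 1479 and 1424 CPM with pLOC-empty and 2954 and 2890.2 CPM with pLOC-MALINC1 (log2 fold change 1.009, standard error 0.039, adjusted p = 1.19e-09), just over 2-fold, and it was just under 2-fold with quantile normalization (0.88). KRT5 was higher by 0.51, and KRT17 was higher by 0.32 but had 0 with quantile normalization. With the MCF10A libraries alone, KRT5 and KRT17 were over the threshold of 0.01 for the adjusted p. In all of these genes the libraries of the groups did not overlap. Among 26 genes of p63 and other epithelial transcription factors 5 rose, SOX15 and SOX9 among them with 1.32 and 1.08, although the median of this list was -0.015. EHF and KLF5 did not pass the test (-0.075 at adjusted p = 0.253 and 0.059 at adjusted p = 0.187). Of 6 luminal markers 1 fell, 2 were higher and 1 lower regardless of fold, and their summed level was 1289.7 and 1387 CPM with pLOC-empty and 1655 and 1564 CPM with pLOC-MALINC1. KRT19 fell from 2.55 and 3.45 CPM to 1.34 and 1.55 CPM (log2 fold change -1.009, standard error 0.19, adjusted p = 0.000654), a call lost with the MCF10A libraries alone (adjusted p = 0.0212), quantile normalization (-0.84) and pseudocounts of 0.5 and 1 CPM (-0.84 and -0.70). KRT18 was higher by 0.61 and KRT8 had 0.0048 at adjusted p = 0.941.

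Of 18 measured genes of the Notch pathway, in which a ligand on one cell releases an intracellular receptor fragment in the next, 6 rose, with a median log2 fold change of 0.43. The ligand JAG1 had 56.0 and 55.5 CPM with pLOC-empty and 181 and 179.8 CPM with pLOC-MALINC1 (log2 fold change 1.70, standard error 0.032, adjusted p = 1.02e-11). The receptor NOTCH1 had 24.1 and 24.3 CPM with pLOC-empty and 60.6 and 59.3 CPM with pLOC-MALINC1 (log2 fold change 1.304, standard error 0.036, adjusted p = 6.93e-11), and NOTCH3 had 3.59 and 4.07 CPM with pLOC-empty and 19.7 and 16.8 CPM with pLOC-MALINC1 (log2 fold change 2.23, standard error 0.092, adjusted p = 2.16e-09). HES2, a transcriptional repressor of the Hairy and enhancer of split family, had 4.76 and 5.80 CPM with pLOC-empty and 43.1 and 39.9 CPM with pLOC-MALINC1 (log2 fold change 2.96, standard error 0.11, adjusted p = 9.99e-10). JAG1, NOTCH1, NOTCH3 and HES2 were higher in every pLOC-MALINC1 library, as all rises were. Regardless of fold 8 genes of the list were higher and 3 lower. The feedback inhibitor NRARP and the glycosyltransferase MFNG stayed under 1 CPM, with log2 fold changes of 1.73 and 1.49, and NOTCH2 had -0.18 at adjusted p = 0.00393. With a pseudocount of 1 CPM, NRARP and MFNG had 0.60 and 0.57, and 4 genes of the list rose. In the Wnt pathway 3 of 26 rose and 2 fell (19.2%, against 5.5% of all genes). WNT7A rose from 6.10 and 6.38 CPM to 18.8 and 19.2 CPM (log2 fold change 1.59, standard error 0.20, adjusted p = 3.44e-05) and WNT5A fell from 37.5 and 37.6 CPM to 12.96 and 12.2 CPM (log2 fold change -1.57, standard error 0.19, adjusted p = 2.00e-05), while the receptors FZD8 and FZD2 had 1.23 and -1.29.

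In the activin and BMP system, where FST stands as an extracellular antagonist, 2 of 32 measured genes rose and 4 fell, with a median log2 fold change of -0.17. Regardless of fold 7 genes of the list were higher and 13 lower. The targets of BMP signaling named here were lower, and a link to FST was not tested. ID2, an inhibitor of helix-loop-helix factors, had 33.5 and 35.9 CPM with pLOC-empty and 8.66 and 8.01 CPM with pLOC-MALINC1 (log2 fold change -2.05, standard error 0.071, adjusted p = 4.56e-10), and SMAD6, the inhibitory SMAD of the pathway, had 5.45 and 5.31 CPM with pLOC-empty and 1.84 and 1.44 CPM with pLOC-MALINC1 (log2 fold change -1.68, standard error 0.15, adjusted p = 1.45e-06). ID1 and ID3 were lower by less than 2-fold (-0.68 at adjusted p = 5.74e-08 and -0.86 at adjusted p = 8.37e-08). The ligand BMP2 fell from 33.5 and 34.7 CPM to 12.8 and 11.9 CPM (log2 fold change -1.46, standard error 0.090, adjusted p = 7.15e-08). ATOH8 had 123 and 82 reads with pLOC-empty and 0 and 2 reads with pLOC-MALINC1. INHBA, the subunit of activin A, had a log2 fold change of 0.71 at adjusted p = 0.000906, and the follistatin-like genes FSTL1 and FSTL3 had -0.92 at adjusted p = 2.28e-08 and -0.16 at adjusted p = 0.0773. Of 21 genes of the TGF-beta system 2 fell, 4 were higher and 13 lower regardless of fold, and the median was -0.21. The lowest log2 fold change of this list was -1.57. Its summed level was 7088.8 and 6994.6 CPM with pLOC-empty and 3432.5 and 3312.5 CPM with pLOC-MALINC1. Such a sum is weighted toward the most abundant members and does not stand for the list, in which only 2 of 21 genes fell. TGFBI, a secreted matrix protein induced by TGF-beta, had 1405 and 1350.4 CPM with pLOC-empty and 671 and 674 CPM with pLOC-MALINC1 (log2 fold change -1.03, standard error 0.051, adjusted p = 9.93e-09).

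The extracellular matrix genes split. Of 22 collagens 2 rose and 6 fell, 4 of the falls being collagen IV chains of the basement membrane. COL4A1 had 374 and 382 CPM with pLOC-empty and 165 and 149 CPM with pLOC-MALINC1 (log2 fold change -1.27, standard error 0.045, adjusted p = 5.84e-10) and its neighbour COL4A2 had 625 and 634 CPM with pLOC-empty and 318 and 307 CPM with pLOC-MALINC1 (log2 fold change -1.01, standard error 0.031, adjusted p = 1.57e-10). COL4A4 had 63.2 and 60.7 CPM with pLOC-empty and 15.8 and 14.2 CPM with pLOC-MALINC1 (log2 fold change -2.04, standard error 0.14, adjusted p = 1.72e-07). The pairs of neighbouring collagen IV genes thus fell together. COL4A3, COL8A1 and COL1A1 had log2 fold changes of -1.70, -2.01 and -1.14. COL16A1, a fibril-associated collagen, rose from 2.48 and 2.79 CPM to 20.1 and 19.1 CPM (log2 fold change 2.86, standard error 0.089, adjusted p = 1.88e-10), and COL17A1, the hemidesmosomal collagen, did not pass the test (0.042 at adjusted p = 0.333, and below 0 with quantile normalization).

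Of 29 laminins, nidogens and matrix glycoproteins 2 rose and 7 fell, and 6 were higher and 15 lower regardless of fold. FN1 (fibronectin) had 1489.6 and 1554 CPM with pLOC-empty and 382 and 353 CPM with pLOC-MALINC1 (log2 fold change -2.05, standard error 0.042, adjusted p = 1.06e-11), and FBN1 (fibrillin-1) had 243 and 252 CPM with pLOC-empty and 84.2 and 82.6 CPM with pLOC-MALINC1 (log2 fold change -1.57, standard error 0.070, adjusted p = 4.33e-09). The thrombospondins moved against them. THBS1 had 796 and 779.7 CPM with pLOC-empty and 2347 and 2299 CPM with pLOC-MALINC1 (log2 fold change 1.56, standard error 0.046, adjusted p = 1.25e-10), and THBS2 had 1.69 and 2.61 CPM with pLOC-empty and 25.7 and 27.9 CPM with pLOC-MALINC1 (log2 fold change 3.62, standard error 0.21, adjusted p = 4.84e-08). POSTN, MATN2, TNXB and LAMA4 had log2 fold changes of -1.52, -1.43, -1.29 and -1.06, of which the call of TNXB was lost when any 1 of the 4 libraries was left out, and LAMA3, a chain of laminin-332, had 0.092 at adjusted p = 0.0811. LOX, which crosslinks collagen, fell from 113 and 111 CPM to 38.8 and 37.4 CPM (log2 fold change -1.56, standard error 0.047, adjusted p = 1.57e-10), and IGFBP3, a binding protein of insulin-like growth factors, fell from 297 and 308 CPM to 87.8 and 78.5 CPM (log2 fold change -1.86, standard error 0.053, adjusted p = 8.99e-11).

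Of 21 proteoglycan and hyaluronan genes 3 rose and 4 fell. SDC1, the epithelial syndecan, had 417 and 448 CPM with pLOC-empty and 1005 and 994 CPM with pLOC-MALINC1 (log2 fold change 1.21, standard error 0.038, adjusted p = 2.09e-10), and HAS3, a hyaluronan synthase, rose from 2.59 and 2.48 CPM to 11.5 and 10.9 CPM (log2 fold change 2.11, standard error 0.072, adjusted p = 4.00e-10). CSPG4, known as NG2, had 70.3 and 64.4 CPM with pLOC-empty and 11.1 and 12.6 CPM with pLOC-MALINC1 (log2 fold change -2.50, standard error 0.11, adjusted p = 3.25e-09), and SDC3 had 103 and 103 CPM with pLOC-empty and 40.1 and 39.1 CPM with pLOC-MALINC1 (log2 fold change -1.38, standard error 0.079, adjusted p = 3.97e-08). Within the syndecans, SDC1 and SDC3 thus moved in opposite directions. CD44, the hyaluronan receptor, was higher by less than 2-fold (0.53 at adjusted p = 1.11e-07). Among 16 genes of epithelial-mesenchymal transition 1 rose and 4 fell, 3 were higher and 10 lower regardless of fold, and the median was -0.51. CDH2 (N-cadherin) had 25.7 and 24.9 CPM with pLOC-empty and 8.80 and 8.88 CPM with pLOC-MALINC1 (log2 fold change -1.51, standard error 0.081, adjusted p = 2.07e-08), ZEB2 had 5.69 and 5.27 CPM with pLOC-empty and 1.73 and 2.08 CPM with pLOC-MALINC1 (log2 fold change -1.496, standard error 0.32, adjusted p = 0.00171), and VIM (vimentin) was lower by less than 2-fold (-0.93 at adjusted p = 1.20e-08). AXL, a receptor tyrosine kinase on the same list, rose from 2.86 and 1.77 CPM to 11.6 and 14.9 CPM (log2 fold change 2.50, standard error 0.18, adjusted p = 2.08e-07), while CDH1 (E-cadherin) had 0.12 at adjusted p = 0.0422.

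Of 22 tight and gap junction genes 4 rose, all of them encoding connexins, 13 were higher and 2 lower regardless of fold, and the median was 0.39. GJA1 had 1.45 and 1.20 CPM with pLOC-empty and 5.60 and 5.14 CPM with pLOC-MALINC1 (log2 fold change 1.97, standard error 0.10, adjusted p = 1.30e-08), and GJB2 had 54.1 and 52.7 CPM with pLOC-empty and 132 and 139.5 CPM with pLOC-MALINC1 (log2 fold change 1.35, standard error 0.048, adjusted p = 6.11e-10). GJB5 and the low gene GJB6 had log2 fold changes of 1.09 and 1.09, and the call of GJB6 was lost when any 1 of the 4 libraries was left out. Among 16 integrins 2 fell, ITGB2 and ITGB3, while the subunits of the hemidesmosomal integrin were higher by less than 2-fold, ITGA6 with 0.77 at adjusted p = 1.39e-07 and ITGB4 with 0.57 at adjusted p = 9.83e-08, and ITGB1 was lower with -0.30 at adjusted p = 4.54e-05. The surface protease TMPRSS4 and the adhesion molecule CEACAM6 rose from 10.2 and 9.43 CPM to 32.4 and 32.3 CPM and from 11.9 and 12.3 CPM to 39.95 and 37.6 CPM, with log2 fold changes of 1.71 and 1.67. AQP3, a glycerol channel, rose from 7.14 and 7.70 CPM to 18.2 and 17.7 CPM (log2 fold change 1.27, standard error 0.12, adjusted p = 3.58e-06).

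Many targets of the glucocorticoid receptor were lower, where both MCF10A groups grew with hydrocortisone in the medium. Of 17 measured 1 rose and 4 fell, 3 were higher and 11 lower regardless of fold, and the median log2 fold change was -0.53. In DCIS.COM, for which the labels list only horse serum, 0 of these genes rose and 5 fell, with a median of -0.42. A link to the medium was not tested. ZBTB16 had 9.55 and 9.08 CPM with pLOC-empty and 1.36 and 1.28 CPM with pLOC-MALINC1 (log2 fold change -2.75, standard error 0.25, adjusted p = 1.93e-06), and TSC22D3, which encodes GILZ, had 83.9 and 83.8 CPM with pLOC-empty and 35.2 and 35.5 CPM with pLOC-MALINC1 (log2 fold change -1.25, standard error 0.12, adjusted p = 2.44e-06). FKBP5, a chaperone of the receptor, and the kinase gene SGK1 were lower by less than 2-fold, with 513 and 519 CPM with pLOC-empty and 289 and 289 CPM with pLOC-MALINC1 and with 127 and 121 CPM with pLOC-empty and 69.8 and 66.9 CPM with pLOC-MALINC1 (-0.84 at adjusted p = 6.77e-09 and -0.86 at adjusted p = 4.08e-08). The libraries of the groups were apart for each of these targets. The receptor gene NR3C1 itself had 157 and 151 CPM with pLOC-empty and 122 and 124 CPM with pLOC-MALINC1 (log2 fold change -0.32, standard error 0.043, adjusted p = 6.21e-05), and NR3C2, the mineralocorticoid receptor gene, fell from 9.79 and 12.1 CPM to 4.71 and 5.02 CPM (log2 fold change -1.15, standard error 0.14, adjusted p = 2.03e-05). HSD11B2, the enzyme that inactivates cortisol, fell from 15.4 and 14.3 CPM to 3.06 and 3.25 CPM (log2 fold change -2.21, standard error 0.23, adjusted p = 5.70e-06). The member that rose, ANGPTL4, which is also induced by hypoxia and fatty acids, had 21.3 and 26.1 CPM with pLOC-empty and 81.9 and 76.5 CPM with pLOC-MALINC1 (log2 fold change 1.74, standard error 0.082, adjusted p = 6.66e-09).

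**Figure D3:**
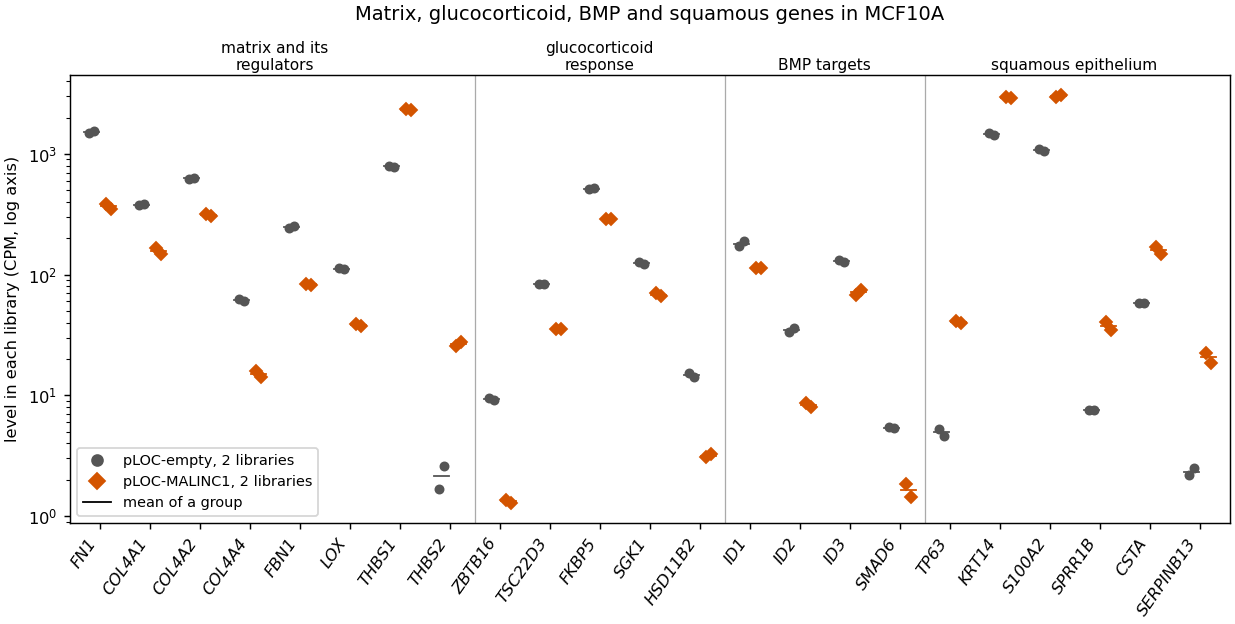
Level of 23 genes in each MCF10A library in CPM (log axis), with grey circles for the 2 pLOC-empty libraries, orange diamonds for the 2 pLOC-MALINC1 libraries and a short line for the mean of each group. Among the genes drawn, matrix genes other than the thrombospondins, glucocorticoid targets and BMP targets stand lower with pLOC-MALINC1, and squamous genes stand higher. The genes were selected, and COL16A1 and ANGPTL4, which rose, and CDSN, which fell, are not drawn.

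Among genes of metabolism, 4 of 33 in cholesterol and fatty acid synthesis rose, 23 were higher and 2 lower regardless of fold, and the median was 0.32. SQLE (squalene epoxidase) had 52.0 and 57.2 CPM with pLOC-empty and 131 and 125 CPM with pLOC-MALINC1 (log2 fold change 1.23, standard error 0.048, adjusted p = 1.35e-09). HMGCS1 and STARD4 had log2 fold changes of 1.06 and 1.24. Of 38 glycolysis and hypoxia genes 3 rose and 1 fell. HK2 (hexokinase 2) had 25.9 and 27.5 CPM with pLOC-empty and 81.6 and 79.4 CPM with pLOC-MALINC1 (log2 fold change 1.59, standard error 0.038, adjusted p = 2.35e-11), while GAPDH had 0.066 at adjusted p = 0.237.

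Genes of cell division were slightly lower. Among 42 genes of the G2 and M phases and 38 of DNA replication 0 were DEGs by limma at the thresholds above, but 20 and 19 were lower regardless of fold against 1 of the former that was higher, and the medians were -0.19 and -0.18. At an unadjusted p below 0.05, 26 and 25 were lower against 5 and 1 that were higher, and limma-voom on recovered reads also called 0. Of 61 replication-dependent histone genes, which are transcribed in S phase, 1 was a DEG and 58 were lower regardless of fold, with a median of -0.49. The summed histone level was 17003 and 17237 CPM with pLOC-empty and 12385 and 12127 CPM with pLOC-MALINC1. Against this, CDK6, a G1 kinase, rose from 105 and 103 CPM to 242 and 232 CPM (log2 fold change 1.19, standard error 0.036, adjusted p = 1.57e-10), the CDK4 and CDK6 inhibitor gene CDKN2C fell from 42.0 and 42.5 CPM to 19.9 and 20.9 CPM (log2 fold change -1.05, standard error 0.072, adjusted p = 1.74e-07), and CCND1 (cyclin D1) was higher by less than 2-fold (0.54 at adjusted p = 9.91e-08). Histone genes hold similar sequences, so reads of single members may be shared.

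**Figure D4:**
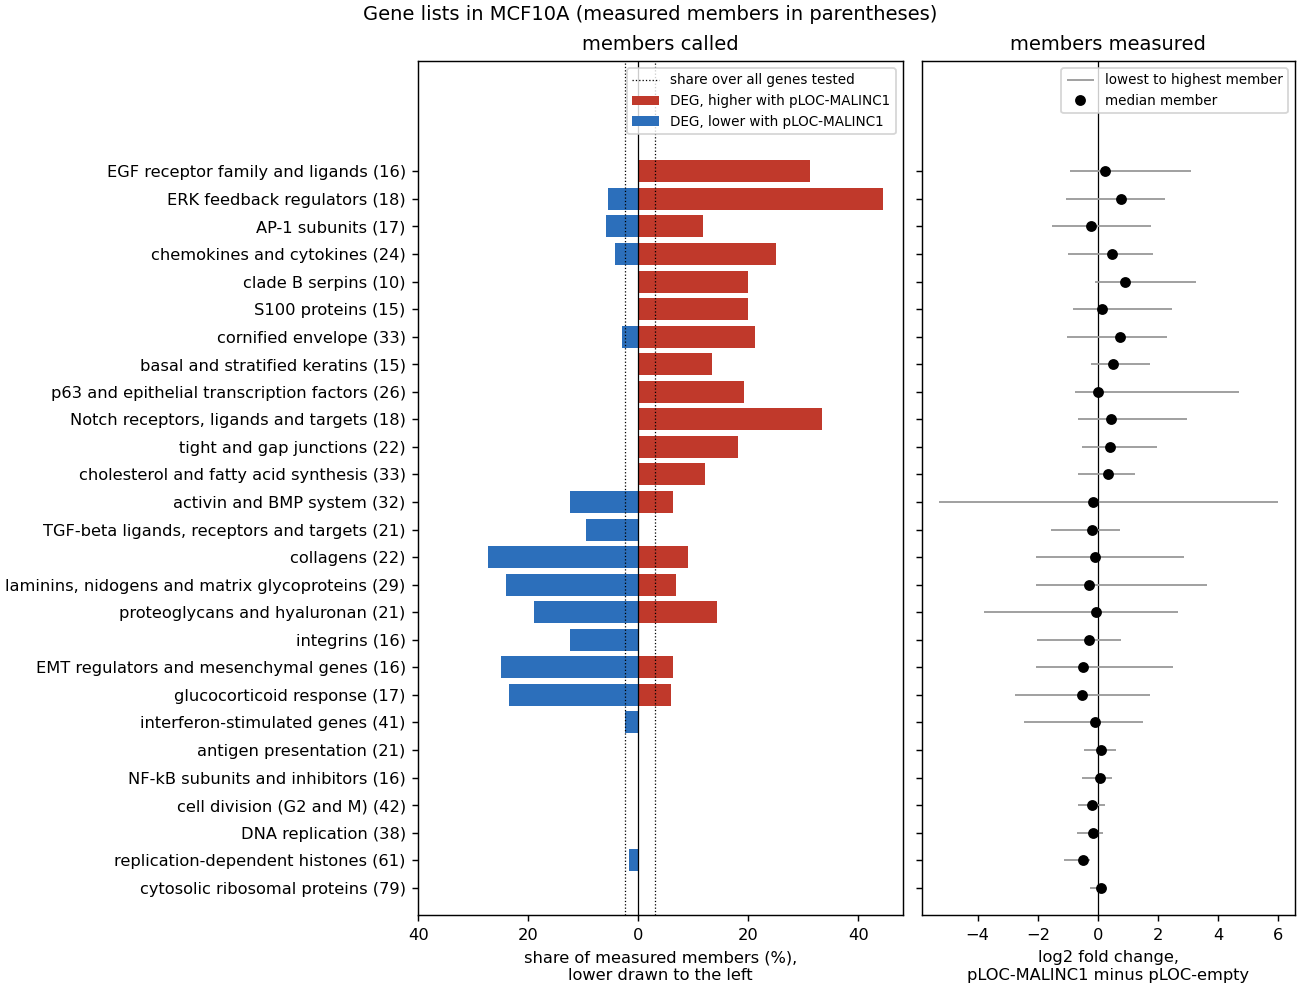
Share of the measured members of 27 gene lists that were DEGs (left, in percent, red for higher and blue for lower with pLOC-MALINC1, dotted lines at the shares of all genes, 2.99% and 2.51%), and the median with the range of the members' log2 fold changes (right). The ERK feedback list has the highest share of rises in the chart, and collagens the highest share of falls.

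Small and long non-coding RNAs also entered the table. Of 122 snoRNA and scaRNA genes 3 rose (2.46%, against 2.99% of all genes), with a median of 0.44. Their summed level differed between replicates, with 3258 and 2609.5 CPM with pLOC-empty and 3634 and 5152 CPM with pLOC-MALINC1. Of 150 antisense RNA genes 5 rose and 6 fell, and of 85 long intergenic RNA genes 2 rose and 5 fell. These are 7.33% and 8.24% of the lists, against 5.5% of all genes. With the MCF10A libraries alone 1 and 2 antisense and 0 and 1 long intergenic RNA genes were called, and with a pseudocount of 1 CPM 0 and 1 antisense and 1 and 0 long intergenic RNA genes. LINC00941 rose from 3.79 and 4.87 CPM to 9.39 and 8.57 CPM (log2 fold change 1.05, standard error 0.15, adjusted p = 8.36e-05) and LINC00205 fell from 5.86 and 5.98 CPM to 2.95 and 2.30 CPM (log2 fold change -1.16, standard error 0.13, adjusted p = 1.33e-05). The call of LINC00941 was lost with the MCF10A libraries alone (adjusted p = 0.0113). MALAT1 had a log2 fold change of -0.65 at adjusted p = 9.19e-05. The strand setting of the read counting is not given in the sources used here, so reads of an antisense gene and of its partner cannot be told apart.

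In the genome the DEGs were spread over all autosomes and the X chromosome. The median log2 fold change of a chromosome ran from -0.042 on chromosome 22 to 0.047 on chromosome 5, a range of 0.0885, where the medians of the difference between replicates ranged over 0.0261. Within 500 kb of MALINC1 13 genes were measured, MALINC1 itself included. Apart from MALINC1, which was overexpressed, HBEGF was the only DEG among them, where 5.5% of all genes were DEGs. MALINC1 was raised from a lentiviral vector and not at its own locus, and an effect on neighbouring genes was not tested. HBEGF lies 224 kb away on chromosome 5, at chr5:139712428-139726188. CXXC5, a zinc finger gene 387 kb to the other side, had 55.4 and 54.9 CPM with pLOC-empty and 27.6 and 28.5 CPM with pLOC-MALINC1 (log2 fold change -0.97, standard error 0.049, adjusted p = 1.24e-08), and was a DEG with library sizes without RN7SL1 and RN7SL2 (-1.012). The overlapping gene PURA had a log2 fold change of 0.10 at adjusted p = 0.239. The nearer genes IGIP, CYSTM1 and PFDN1 had -0.44 at adjusted p = 0.125, 0.11 at adjusted p = 0.229 and 0.029 at adjusted p = 0.650. Runs of at least 3 neighbouring DEGs in the same direction were found at 5 places, among them RASSF6, CXCL8 and CXCL1 on chromosome 4, the connexin genes GJA3, GJB2 and GJB6 on chromosome 13 and 6 chorionic gonadotropin beta genes on chromosome 19. CGB8 fell from 39.3 and 37.1 CPM to 12.8 and 13.2 CPM, but the gonadotropin genes are near-identical copies, so this run may rest on shared reads. The run of connexin genes has only GJA3 and GJB2 where the call of GJB6 is lost.

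The response of MCF10A was compared with that of DCIS.COM by a contrast of the difference itself, where the lines also differ in medium. Of the 761 DEGs of MCF10A, 509 differed between the lines by over 2-fold at an adjusted p below 0.01, against 9.2% of all genes, and 4.53% of all genes were DEGs of DCIS.COM itself. The share of 509 is raised by the choice of MCF10A DEGs itself. KLHL13, an adaptor of ubiquitin ligases, rose from 0.690 and 0.930 CPM to 7.66 and 8.27 CPM in MCF10A, whereas in DCIS.COM it had 17.5 and 18.8 CPM with pLOC-empty and 2.07 and 1.71 CPM with pLOC-MALINC1. FST had 20.2 and 19.6 CPM with pLOC-empty and 14.1 and 15.9 CPM with pLOC-MALINC1 in DCIS.COM. TNFRSF6B, a decoy receptor, rose from 1.69 and 2.44 CPM to 7.11 and 6.95 CPM in MCF10A and had 16.1 and 16.2 CPM with pLOC-empty and 0.816 and 0.768 CPM with pLOC-MALINC1 in DCIS.COM. In KLHL13 and TNFRSF6B the lines moved in opposite directions, and FST rose in MCF10A with a DCIS.COM log2 fold change of -0.41 (adjusted p = 0.0496). SHISAL1 fell from 9.97 and 10.4 CPM to 3.87 and 3.55 CPM in MCF10A and had 0.373 and 0.0955 CPM with pLOC-empty and 1.98 and 1.71 CPM with pLOC-MALINC1 in DCIS.COM. PLCXD3 fell from 53 and 53.1 CPM to 21.6 and 18.7 CPM in MCF10A and had 0.0466 and 0.0477 CPM with pLOC-empty and 0.553 and 0.502 CPM with pLOC-MALINC1 in DCIS.COM, where the control level was about that of a single read.

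Several of the groups described above differed between the lines in single members. For HBEGF the log2 fold change in DCIS.COM was -0.9969 and the difference -4.10 (standard error 0.11, adjusted p = 7.04e-11). For TP63 the values were -0.19 and -3.23 (adjusted p = 1.06e-10), and for FN1 0.85 and 2.90 (adjusted p = 7.68e-12). AREG, DUSP6, JUN and ID2 also differed, by -1.73, -2.50, 1.499 and 2.19 (adjusted p = 5.61e-10, 3.18e-10, 1.16e-07 and 4.32e-09). The differences of MALINC1 and CEACAM6 did not pass (0.77, adjusted p = 0.0299, and -0.092, adjusted p = 0.463). By list, DCIS.COM had 1 fall among the EGF receptor genes, 1 rise in the ERK feedback list and 2 falls in cholesterol synthesis. It had 9 rises in the cornified envelope and 5 falls among the glucocorticoid targets. Chemokines and cytokines had 0 rises and 8 falls in DCIS.COM, against 6 rises and 1 fall in MCF10A. AP-1 subunits had 0 rises and 3 falls in DCIS.COM, against 2 rises and 1 fall in MCF10A. In the replication-dependent histones DCIS.COM had 5 rises with a median of 0.73.

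**Figure D5:**
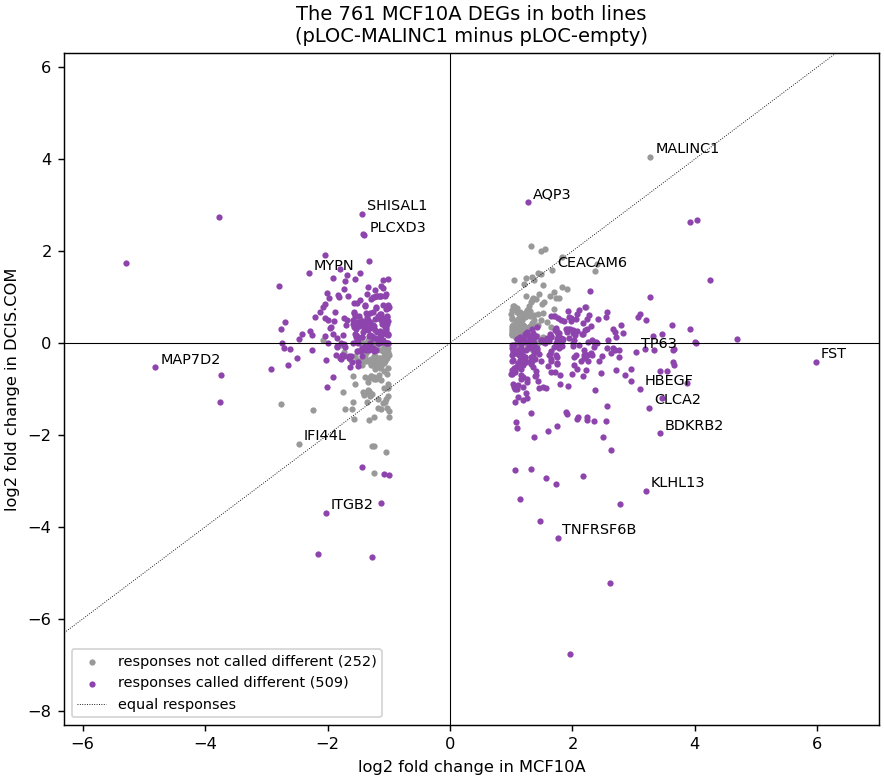
Log2 fold change with pLOC-MALINC1 over pLOC-empty in MCF10A (x axis) and in DCIS.COM (y axis) of the 761 MCF10A DEGs, purple for the 509 whose responses differ by the test of the difference, grey for the other 252, and a dotted line where responses are equal. FST, TP63 and HBEGF lie far to the right and near or under 0 on the y axis, and MALINC1 lies near the line of equal responses.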

How the data were processed

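RNA was sequenced from 8 libraries of MCF10A and DCIS.COM cells with pLOC-empty or pLOC-MALINC1, with 2 libraries per group. The authors counted reads per gene with featureCounts on hg19, and edgeR is among the tools that the submitters' processing notes name. They deposited log2 CPM values that include a prior count. The lowest deposited value corresponds to 0.0713 CPM, and after the prior (2 reads in a library of mean size) was taken off, 100% of the values were whole reads within 0.01 reads, so depth and CPM could be recovered. The deposited table had been filtered, and all 13842 genes were tested. All intervals and floors cover counting error only.

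These log2 values entered limma 3.58.1 (R 4.3.3) as a model of 4 group means over all 8 libraries, with a trended prior with 7.98 degrees of freedom and Benjamini-Hochberg adjustment. The 4 residual degrees of freedom come from pairs of libraries. DEGs changed over 2-fold with an adjusted p below 0.01 on the scale of the deposited log2 CPM, which understates changes of low genes. The difference between the lines was tested as a contrast in the same model. A planned edgeR test and a planned DESeq2 test were not run, and limma-voom on recovered reads was added in their place after seeing the data. Libraries scaled by total reads were added in the same way.

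The gene lists and the members described were chosen with earlier results of these data known. Named were MALINC1, the 15 largest rises and falls that reached 5 CPM in a group, up to 5 DEGs each way of a list together with its 2 members of highest level, AP-1 subunits, genes within 500 kb of MALINC1 and the 5 largest differences between the lines each way. Some of these genes are not reported here, and further members with low levels or without a call were named after their values were seen. Positions came from GENCODE on GRCh37, which matched 13024 genes (94.1%) by current or older symbol, and promoters from RefSeq on GRCh38.p14. 346 genes without a symbol were tested but not named. Figures were drawn with matplotlib 3.10.9.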

Additional observations from a re-analysis of the deposited data

Results flagged for a closer look

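The response to MALINC1 differed between the lines for 1273 genes by the contrast of the differences (adjusted p below 0.01 and over 2-fold, limma with Benjamini-Hochberg adjustment), 9.2% of the genes tested. The lines also differ in medium, so line and medium cannot be told apart.

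Values are DCIS.COM minus MCF10A on the log2 scale. The largest negative differences among the MCF10A DEGs with at least 5 CPM were -6.42 for KLHL13, -6.38 for FST, -5.99 for TNFRSF6B, -5.39 for BDKRB2 and -4.66 for CLCA2. KLHL13, TNFRSF6B, BDKRB2 and CLCA2 rose in MCF10A and fell in DCIS.COM.

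The largest positive differences were 4.28 for MAP7D2, 4.25 for SHISAL1, 3.83 for MYPN, 3.80 for GPRIN2 and 3.74 for PLCXD3. In DCIS.COM, GPRIN2 had 0 and 0.0477 CPM with pLOC-empty and 0.349 and 0.473 CPM with pLOC-MALINC1 and MAP7D2 had 0.0933 and 0.191 CPM with pLOC-empty and 0.0583 and 0.0887 CPM with pLOC-MALINC1, so these differences rest on few reads there and depend on the prior count. MYPN had 2.15 and 1.57 CPM with pLOC-empty and 5.65 and 5.14 CPM with pLOC-MALINC1 in DCIS.COM, where it rose.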

How the results depend on the processing

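The 761 DEGs depended most on the pseudocount and on the fold limit. With a pseudocount of 0.5 CPM there were 520 DEGs, of which 229 were lower, and with a pseudocount of 1 CPM 416 DEGs, 238 higher and 178 lower. Without a fold limit 5485 genes passed at an adjusted p below 0.01 and 7338 at 0.05. With the MCF10A libraries alone 578 were called, with quantile normalization 677 and with limma-voom 752, and 571, 656 and 717 of the original 761 were among them. Leaving out each MCF10A library in turn gave 679 to 721 DEGs, and MALINC1 then had log2 fold changes of 2.99 to 3.55, where the lone library of a group is assumed to vary like the other groups. No scaling moved the median of all genes by more than 0.033 on the log2 scale.

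No pairing of the MCF10A libraries by replicate number was visible, as the deviations of same-numbered libraries had a correlation of -0.068 across genes. With 2 libraries per group, this value cannot exclude a shared effect that is small or limited to some genes. With the replicate number as a block 764 DEGs were called, 752 of them among the 761. The edgeR and DESeq2 alternatives were not run. With 2 libraries per group, genes with few reads rest on a spread borrowed from other genes.

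Genes with a log2 fold change near 0 changed sign. KRT8 had -0.0072 with total reads, -0.035 without RN7SL1 and RN7SL2, -0.069 with quantile normalization and -0.047 to 0.057 without a library, and PFDN1 had -0.011 without RN7SL1 and RN7SL2 and -0.014 with quantile normalization. With quantile normalization COL17A1 had -0.076, LAMA3 -0.044 and KRT17 0. Without a library CXCL3 ranged from -0.041 to 0.34 and EHF from -0.16 to 0.0092.

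Among the named DEGs, SHISAL1, TNXB and GJB6 lost the call whichever of the 4 libraries was left out, with an adjusted p of up to 0.0302, 0.0613 and 0.0525, and GJB6 also lost it with the replicate block (adjusted p = 0.0176). CDSN and ZEB2 lost it without 3 of the libraries (up to 0.0545 and 0.0202), GPRIN2 and KRT19 without 2 (up to 0.0111 and 0.0107) and POSTN without 1 (0.0123). KRT14, COL4A2, LINC00941 and PNO1 came just under 2-fold without 2 of the libraries, as did DUSP2, DUSP5, LAMA4, LINC00205, NR3C2, POLR1B and RRP9 without 1, with LINC00941 lowest at 0.87 on the log2 scale. With a pseudocount of 1 CPM, CD274, CDSN, DUSP2, EGR1, GJB6, KRT19, LAMA4, LINC00205, LINC00941, MFNG, NRARP, PNO1, RRP9 and SPRY1 were under 2-fold, and DUSP2 lost its call with the MCF10A libraries alone (adjusted p = 0.0259). VIM became a DEG without the second pLOC-MALINC1 library and IL1B without the second pLOC-empty library. With that pseudocount 6 of the ERK feedback regulators and 4 of the EGF receptor family and ligands rose, against 8 and 5. KRT14 was also just under 2-fold with library sizes without RN7SL1 and RN7SL2 (0.97). Some changes under 2-fold that passed an adjusted p of 0.01 were over it with the MCF10A libraries alone. They were those of ERBB3, IL18, IL1A, IL1B, INHBA, KRT5, KRT17, MALAT1, NOTCH2, PPL and SPRED2. FSTL3 went the other way and was under 0.01 there. The counts given regardless of fold rest on the fit over all 8 libraries.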

Other observations

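Further genes outside the lists were chosen after their values were seen, and carry no test beyond the fit over all genes. FGFBP1, a secreted carrier of fibroblast growth factors, rose from 93.7 and 104 CPM to 344 and 332 CPM (log2 fold change 1.78, standard error 0.049, adjusted p = 7.62e-11). CTSC, the protease cathepsin C, rose from 37.9 and 44.3 CPM to 174 and 168 CPM, and HMGA2, a chromatin protein, from 4 and 4.74 CPM to 23.4 and 23.4 CPM. MIR205HG, the host gene of miR-205, rose from 10.3 and 11.1 CPM to 34.2 and 37.7 CPM. CCDC80, a secreted matrix protein, fell from 352 and 349.7 CPM to 95.5 and 86.0 CPM (log2 fold change -1.95, standard error 0.072, adjusted p = 8.04e-10), and the receptor gene FGFR1 fell from 41.4 and 39.6 CPM to 15.5 and 15.6 CPM.

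Genes of retinoid metabolism moved both ways. LRAT, which esterifies retinol, rose from 48.3 and 56.1 CPM to 141 and 143 CPM, and CRABP2, which carries retinoic acid, rose from 15.8 and 16.5 CPM to 65.8 and 56.6 CPM. STRA6, a retinol transporter, fell from 30.2 and 31.8 CPM to 10.2 and 10.2 CPM, and DHRS3, which reduces retinaldehyde, fell from 90.2 and 95.3 CPM to 34.4 and 32.1 CPM. A few genes of ribosome production, which formed no list, rose just over 2-fold, with log2 fold changes of 1.011 for RRP9, 1.02 for PNO1, 1.03 for POLR1B, 1.14 for NOP16 and 1.18 for LYAR, and ODC1, which starts polyamine synthesis, had 1.05. RRP9, PNO1 and POLR1B came just under 2-fold with library sizes without RN7SL1 and RN7SL2 (0.97, 0.98 and 0.99), and these and ODC1 did so with quantile normalization (0.96, 0.96, 0.96 and 0.99). ULK1, a kinase of autophagy, and FBXO32, a ubiquitin ligase subunit, fell from 42.2 and 40.8 CPM to 16.02 and 13.3 CPM and from 24.9 and 21.3 CPM to 6.07 and 6.08 CPM.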
